A study of Mus musculus with 6 samples.

Results

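The genes described here encode Wnt receptors, secreted proteins of the sFRP and Dickkopf families, and products of Wnt target genes. They are the frizzled receptors Fzd1, Fzd4, Fzd5 and Fzd8, the secreted proteins Sfrp1, Sfrp2, Sfrp5 and Dkk3, and the target genes Axin2 and Lef1. They were measured in the embryonic eye of mice with and without Oa1, now named Gpr143, whose product is a melanosomal receptor coupled to G proteins. Every probe set that the annotation of the Affymetrix Mouse 430 2.0 array assigned to 1 of these 10 genes was taken, which gave 23 of the 45101 probe sets on the array. A probe set is a group of short probes for 1 transcript region. For Sfrp2 there was 1 probe set, and for Sfrp1 there were 5. There were 3 wild-type (WT) arrays and 3 Oa1-/- arrays, all from embryos at day 15.5 after coitus, and the labels name no treatment. Each array held RNA from the posterior segments of the eyes of 6 embryos of 1 dam, pooled after the anterior segments had been removed, so that a replicate was a litter pool. Neither strain nor embryo sex is stated in the sources used here, and the same holds for how much of the gene was deleted.

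Wnt proteins bind frizzled receptors together with an Lrp co-receptor, which stabilizes β-catenin and lets it activate genes through TCF/LEF transcription factors. sFRP proteins carry a frizzled-like cysteine-rich domain and bind Wnts outside the cell, and norrin, which is not a Wnt, also signals through Fzd4. In the embryonic eye, β-catenin signalling through TCF/LEF is best known from the pigment epithelium, the ciliary margin and the surrounding mesenchyme, while Fzd5, Sfrp2 and Dkk3 are expressed in retinal progenitors. Axin2, a scaffold of the complex that degrades β-catenin, and Lef1, a transcription factor that partners β-catenin, are widely used as readouts of the pathway.

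Because Axin2 and Lef1 are read here as target genes, promoter windows of both are shown, from RefSeq on build GRCm38.p6, running from 250 bases before to 50 bases after an annotated start. The letters CTTTGA, the core of the TCF/LEF consensus, were searched on both strands, so that a match on the other strand reads TCAAAG, and matches are in capitals. The Axin2 window lies at chr11:108920099-108920398 on the plus strand. Of the 4 Lef1 windows, the one shown lies at chr3:131156044-131156343 on the plus strand, within the gene and downstream of the other annotated starts. It is the only Lef1 window with a match, and the windows at the upstream starts held 0. The longer letters CTTTGAT, also searched, were not found in it.
Axin2: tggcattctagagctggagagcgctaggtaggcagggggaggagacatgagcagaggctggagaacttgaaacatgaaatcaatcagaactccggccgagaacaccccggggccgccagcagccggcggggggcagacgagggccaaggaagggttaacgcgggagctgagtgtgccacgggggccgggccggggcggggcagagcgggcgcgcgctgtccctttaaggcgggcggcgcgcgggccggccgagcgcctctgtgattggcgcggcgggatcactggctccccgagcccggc
Lef1: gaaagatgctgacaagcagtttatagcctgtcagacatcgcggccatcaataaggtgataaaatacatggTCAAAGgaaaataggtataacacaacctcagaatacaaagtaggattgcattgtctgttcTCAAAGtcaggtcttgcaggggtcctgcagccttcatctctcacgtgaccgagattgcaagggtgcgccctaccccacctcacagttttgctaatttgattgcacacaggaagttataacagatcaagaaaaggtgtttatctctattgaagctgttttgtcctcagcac
The Lef1 window held 2 matches, which began 180 and 120 bases before the start, and the Axin2 window held 0. Of the 10 windows found for 7 of the members, 2 held a match, the Lef1 window and that of Fzd1, against 5257 of all 32851 promoter windows in the table. The member search left out a chromosome that the count over all windows kept, so the counts were not drawn alike. These matches describe the letters of the windows, and the arrays did not measure binding to them.

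The arrays were checked first. Gpr143 gave signals of 250, 257 and 246 on the WT arrays and of 28.3, 39.1 and 6.02 on the Oa1-/- arrays, so the 6 arrays followed their labels as far as its 1 probe set (1420581_at) lies in the deleted part. On each array the highest of 27 bacterial control probe sets, for which no RNA is expected, read between 22.1 and 39.3, and signals in that range are treated here as near background. WT replicate 3 stood apart in its Y-linked genes, with Eif2s3y at 9.26 against at least 406 on the other 5 arrays. Xist differed by genotype on 1427262_at, at 694, 1390 and 2044 on the WT arrays and 330, 341 and 491 on the Oa1-/- arrays. The log2 change there was −1.68 (unadjusted p = 0.00113, limma adjusted p = 0.985). On 1427263_at and 1436936_s_at it was −0.49 and −0.45, with overlapping groups. Of the 3 control probe sets for 18S ribosomal RNA, the 3' one read 1476 to 1988 on the WT arrays and 2608 to 6348 on the Oa1-/- arrays, highest on Oa1-/- replicate 1. The 5' one did not overlap either. The middle one did, at 1371 to 2397 on the WT arrays and 1968 to 6576 on the Oa1-/- arrays. Markers of the retina were present on every array. The summed signal of 10 retinal progenitor genes was 57847 to 68335 on the WT arrays and 62613 to 67181 on the Oa1-/- arrays. Lens genes also gave signal on every array, although the anterior segments had been removed. The sum of 10 of them was 120784 to 162338 on the WT arrays and 147219 to 160019 on the Oa1-/- arrays. Of 13 pigment epithelium genes, Rpe65, Best1 and Lrat lay below the low-signal limit used here (a mean of 66.03).

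No member passed the test for a difference between the genotypes. The test was limma on log2(signal + 16), over the 27029 probe sets whose mean lay above the 40th percentile, with Benjamini-Hochberg adjustment over all of them. Of the 23 member probe sets, 17 lay above that limit, for 9 of the 10 genes, and Sfrp5 had none. Of the 17, 0 had an adjusted p below 0.05, as for 0 of all 27029 probe sets (0%). The probe set of the targeted gene, Gpr143, was among those that did not pass, so a count of 0 does not show that nothing changed. At an unadjusted p below 0.05 there were 0 members, against 4.11% of all probe sets tested, and the groups overlapped for 17 of 17, where 10.2% of all probe sets had groups that did not overlap. The log2 change (Oa1-/- minus WT) was below 0 for 11 of the 17 and above 0 for 6, with a median of −0.05. Over all probe sets tested, 52.6% were below 0 and the median was −0.01. The median size of the change was 0.10 for the members and 0.11 for all, against a median SD within a genotype of 0.19 and 0.18, so on both measures the members were close to the rest of the array. The 95% interval of the change included 0 for each of the 17.

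**Figure D1:**
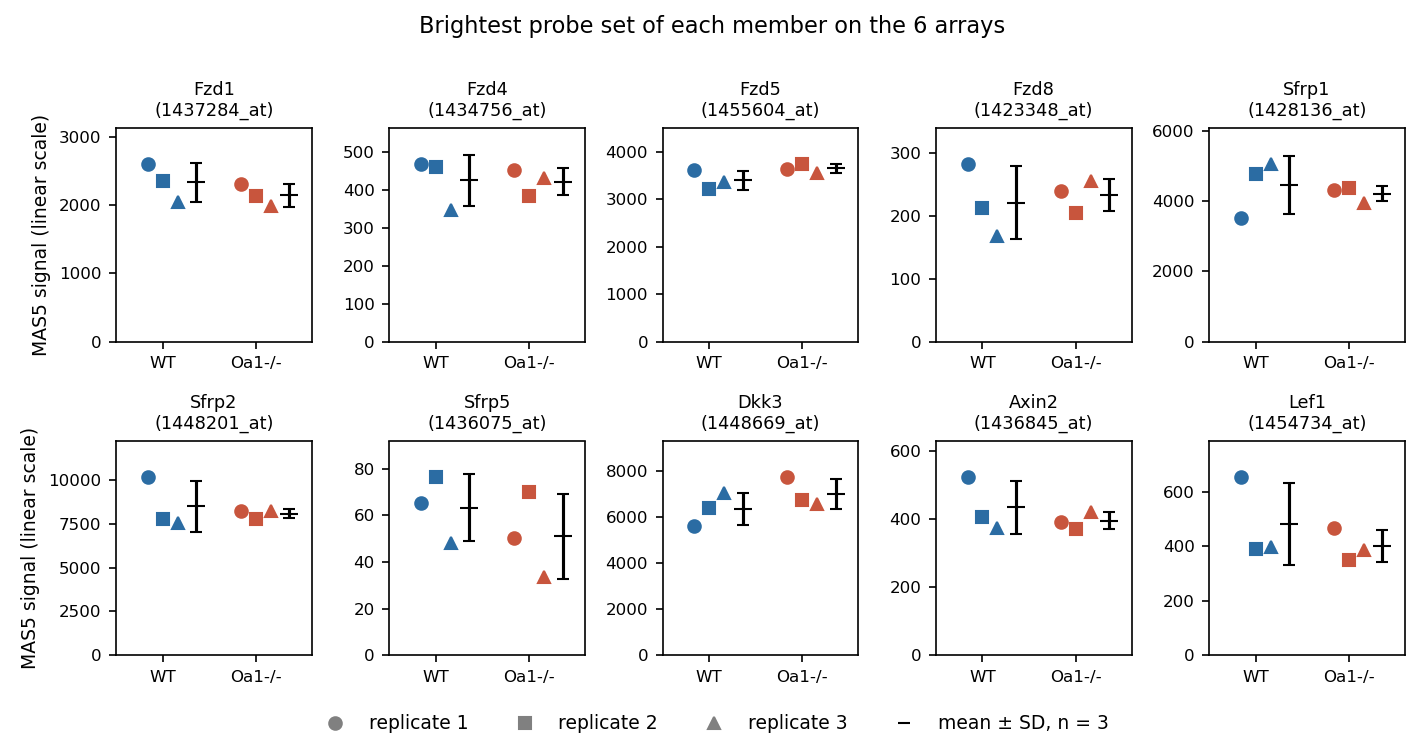
MAS5 signal on a linear scale (vertical axis, from 0) of the brightest probe set of each of the 10 members, by genotype, with a symbol for each array (circle, replicate 1; square, replicate 2; triangle, replicate 3) and the mean ± SD (n = 3) in black. The genotypes overlap in every panel, and WT replicate 1 is the highest array for Fzd1, Fzd4, Fzd8, Sfrp2, Axin2 and Lef1.

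Among the receptors, the brightest Fzd1 probe set (1437284_at) read 2605, 2347 and 2039 on the WT arrays and 2313, 2127 and 1984 on the Oa1-/- arrays. WT replicate 1 was highest and Oa1-/- replicate 3 lowest, and the groups overlapped. The means were 2330 ± 283 and 2141 ± 165 (SD, n = 3), a log2 change of −0.12 (SE 0.11, limma adjusted p = 0.985). Its 95% interval ran from a level 0.776 times that of WT to one 1.10 times that of WT. Without WT replicate 1 the change was −0.03, and without WT replicate 3 it was −0.21. The other Fzd1 probe set lay near background, at means of 39.2 and 38.2.

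Fzd4, the receptor shared by Wnts and norrin, had probe sets that disagreed on WT replicate 3. Among the other arrays, Oa1-/- replicate 2 was the lowest on both of the brighter probe sets. On 1434756_at the signals were 469, 459 and 346 on the WT arrays and 451, 383 and 430 on the Oa1-/- arrays, with WT replicate 3 the lowest array. On 1419301_at they were 283, 257 and 467 on the WT arrays and 276, 226 and 296 on the Oa1-/- arrays, with WT replicate 3 the highest array. The same litter pool was thus at opposite ends for 2 probe sets of 1 gene. The log2 changes were −0.000846 (SE 0.15, 95% interval −0.34 to 0.34) and −0.28 (SE 0.23, interval −0.80 to 0.24), with limma adjusted p of 1.00 and 0.985. The sign of the first was not settled, and turned positive without WT replicate 1 (0.07), without WT replicate 2 (0.06) or without Oa1-/- replicate 2 (0.06), and with quantile normalization or median centring. The remaining Fzd4 probe set was near background, at means of 16.5 and 13.8.

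Fzd5, a frizzled of retinal progenitors, varied little between the arrays. Its bright probe set (1455604_at) read 3612, 3218 and 3362 on the WT arrays and 3642, 3749 and 3548 on the Oa1-/- arrays. In Oa1-/- 2 of the 3 arrays lay above all WT arrays, and Oa1-/- replicate 3 lay below WT replicate 1. The means were 3397 ± 199 and 3647 ± 100 (SD, n = 3), a log2 change of 0.10 (SE 0.08, limma adjusted p = 0.985). The 95% interval, from 0.952 to 1.21 times the WT level, was the narrowest among the 9 brightest probe sets. The dimmer probe set (1422937_at) had the opposite sign, at 169 ± 23.3 and 156 ± 25.1 (SD, n = 3) and a log2 change of −0.10 (SE 0.19).

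Fzd8, a frizzled close in sequence to Fzd5, varied more between the arrays. Its signals on 1423348_at were 283, 212 and 168 on the WT arrays and 239, 205 and 256 on the Oa1-/- arrays. Both the highest and the lowest array were WT, replicates 1 and 3. The log2 change was 0.10 (SE 0.20, limma adjusted p = 0.988, 95% interval 0.773 to 1.48 times WT), and it came to 0.28 when WT replicate 1 was left out and to −0.07 when WT replicate 3 was. The second probe set (1445815_at) read 133 ± 9.47 and 141 ± 10.2 (SD, n = 3), a log2 change of 0.08 (SE 0.17).

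Among the secreted proteins, Sfrp1 had 5 probe sets above the limit. The brightest (1428136_at) read 3514, 4764 and 5067 on the WT arrays and 4309, 4364 and 3958 on the Oa1-/- arrays. The 3 Oa1-/- arrays lay inside the WT range, whose highest array was 1.44 times its lowest. Between the genotypes the log2 change was −0.06 (SE 0.13, limma adjusted p = 0.988, 95% interval 0.775 to 1.18 times WT), with −0.22 without WT replicate 1 and 0.04 without WT replicate 3. The other 4 probe sets had log2 changes of −0.14, −0.05, −0.04 and 0.02, each within its own error. They ordered the arrays differently. WT replicate 3 was the highest array on 3 of the 5 and the lowest on 1460187_at, where it read 802 against 1417 for WT replicate 2.

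Sfrp2, the sFRP of the retinal progenitor layer, read 10172, 7768 and 7544 on the WT arrays and 8247, 7772 and 8220 on the Oa1-/- arrays with 1448201_at. WT replicate 1 stood above the other 5 arrays, which lay between 7544 and 8247. The means were 8495 ± 1457 and 8080 ± 267 (SD, n = 3), so the WT mean rested on 1 array, and the log2 change of −0.06 (SE 0.11, limma adjusted p = 0.987, 95% interval 0.800 to 1.15 times WT) became 0.08 without WT replicate 1.

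Sfrp5, an sFRP close to Sfrp1, was not measured well. Its probe set 1436075_at read 65.4, 76.5 and 48.2 on the WT arrays and 50.1, 69.9 and 33.4 on the Oa1-/- arrays, with a mean of 57.3 over the arrays. The other (1423023_at) read 18.7, 9.12 and 90.4 on the WT arrays and 26.6, 58.6 and 40.2 on the Oa1-/- arrays. That spread includes values near background, and the groups overlapped on both. The 2 probe sets differed in direction, with log2 changes of −0.26 and 0.31 when all probe sets were kept (limma adjusted p = 0.993 for both). In exact permutation tests of the log2 values, two-sided, p was 0.5 and 0.7, where 0.1 is the smallest that 3 against 3 can give.

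Dkk3, a divergent Dickkopf protein that, unlike Dkk1, is not established as a Wnt inhibitor, had the highest log2 change of the 17 member probe sets above the limit. On 1448669_at it read 5641, 6393 and 7068 on the WT arrays and 7754, 6749 and 6570 on the Oa1-/- arrays. WT replicate 1 was lowest and Oa1-/- replicate 1 highest, with the other 4 arrays between 6393 and 7068. The means were 6367 ± 714 and 7025 ± 638 (SD, n = 3), a log2 change of 0.14 (SE 0.10, limma adjusted p = 0.985, 95% interval 0.937 to 1.30 times WT), which came to 0.06 when WT replicate 1 was left out and to 0.22 when WT replicate 3 was. The second probe set (1417312_at) had the same sign, at 5214 ± 303 and 5490 ± 799 (SD, n = 3) and a log2 change of 0.07 (SE 0.11). Its lowest array was Oa1-/- replicate 3, at 4627.

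**Figure D2:**
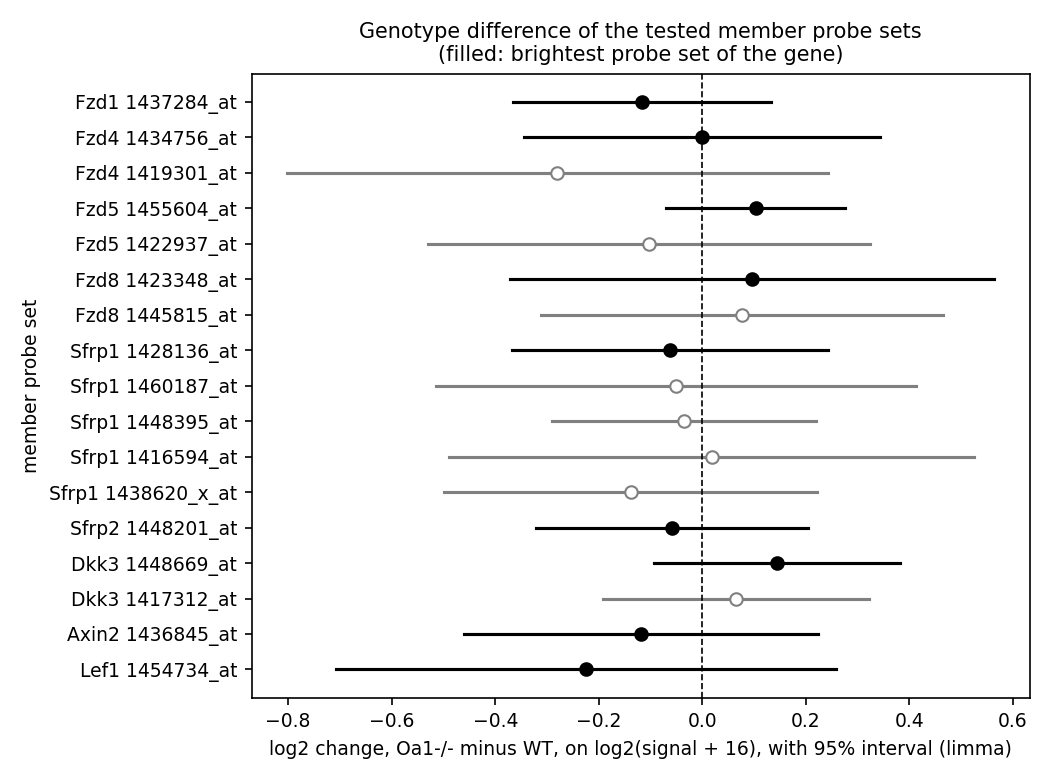
Log2 change between genotypes (horizontal axis, Oa1-/- minus WT, on log2(signal + 16)) of the 17 member probe sets tested, with the 95% interval from limma as a line; filled points are the brightest probe set of each gene. Every interval includes 0, and the widest is that of the dimmer Fzd4 probe set, from −0.80 to 0.24.

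Both target genes were highest on WT replicate 1. Axin2 read 524, 406 and 375 on the WT arrays and 393, 372 and 422 on the Oa1-/- arrays with 1436845_at. That array stood above the rest, and the other 2 WT arrays lay within the Oa1-/- range of 372 to 422. The log2 change came to −0.12 (SE 0.15, limma adjusted p = 0.985, 95% interval 0.726 to 1.17 times WT), and without WT replicate 1 it was 0.02. Lef1 read 654, 391 and 399 on the WT arrays and 465, 349 and 387 on the Oa1-/- arrays with 1454734_at. WT replicate 1 was again the highest array, 1.67 times the lowest WT array. The log2 change of −0.22 (SE 0.21, limma adjusted p = 0.985, 95% interval 0.613 to 1.19 times WT) became 0.01 without WT replicate 1. The other probe set of each gene was near background. That of Axin2 (1421341_at) had means of 27.9 and 13.4, and that of Lef1 (1421299_a_at) had means of 29.5 and 14.7, with 0.882 on Oa1-/- replicate 3. Averaging the log2 values of both probe sets of a gene, dim ones included, gave −0.34 for Axin2 (unadjusted p = 0.0478, limma adjusted p = 0.956) and −0.46 for Lef1.

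Several members were highest or lowest on the same litter pool. By the brightest probe set of each of the 9 genes tested, 6 had their highest array in WT replicate 1, namely Fzd1, Fzd4, Fzd8, Sfrp2, Axin2 and Lef1, and 2, Sfrp1 and Dkk3, had their lowest there. Over all 27029 probe sets tested, WT replicate 1 was the highest array for 20.2% and the lowest for 19.4%. Counted over all 17 member probe sets tested, as that background is, it was the highest array for 6 and the lowest for 4. On that array Lef1 lay 0.58, Axin2 0.33, Fzd8 0.32 and Sfrp2 0.30 above their mean over the 6 arrays on the log2 scale, and Sfrp1 lay at −0.29 and Dkk3 at −0.24. The tissue content of that array differed as well. It had the highest summed signal of 6 red blood cell genes, at 23311 against 3589 to 10136 on the other arrays, and the lowest of 10 lens genes, at 120784 against at least 147219, of 8 skeletal muscle genes (5486) and of 6 surface epithelium genes (4213). Its summed signal of 15 periocular mesenchyme markers was also the lowest, at 81451 against at least 83788. The part of these tissues in the members' values was not tested. In pooled tissue, fewer cells of a type and less RNA per cell cannot be told apart.

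**Figure D3:**
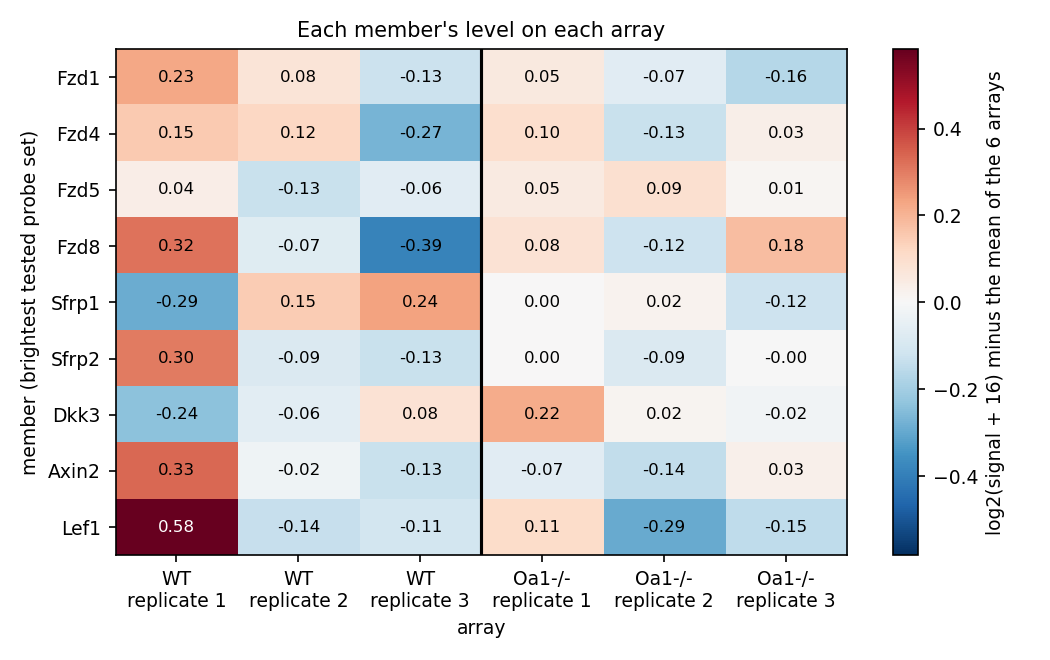
Log2(signal + 16) of the brightest tested probe set of 9 members (rows) on each array (columns), minus the gene's mean over the 6 arrays, with the value in each cell and on the colour scale. The column of WT replicate 1 holds the highest value for Fzd1, Fzd4, Fzd8, Sfrp2, Axin2 and Lef1, and the lowest for Sfrp1 (−0.29) and Dkk3 (−0.24).

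The genes most like each member across the 6 arrays were listed by Pearson's r as a description. Sfrp2 was closest to the homeobox gene Dlx1 (r = 0.997) and to Dkk1 (r = 0.994), a secreted inhibitor that blocks the Lrp co-receptors. Axin2 was closest to the adhesion molecule Clmp (r = 0.995) and to the T-box gene Tbx22 (r = 0.991), Lef1 to Amdhd2 and Rnf182, and Fzd1 to Myzap and to Snai2, a zinc finger factor of neural crest and mesenchyme (r = 0.976). Sfrp1 was closest to the protease gene Htra3 (r = 0.995), Dkk3 to Sf3b5 (r = 0.996), Fzd5 to Lclat1 (r = 0.993), Fzd8 to Luc7l2 (r = 0.993) and Fzd4 to Tesk2 (r = 0.991). Such values are common with 6 arrays, since the best match had a median r of 0.992 over all 12885 genes tested and of 0.995 over the 9 members.

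The rest of the pathway was read from 9 lists holding 109 other gene names. Of these, 106 had a probe set and 84 passed the limit, with the brightest probe set of each taken. Tnfrsf19 was also entered under its other name, Troy, which matched no probe set. Some genes, such as Lrp5 and Ctnnb1, are in more than 1 list, and each was counted once among the 84. Of the 84, 0 passed the threshold (limma, adjusted over all probe sets). At an unadjusted p below 0.05, 1 was higher and 8 were lower in Oa1-/-, where 1.64% and 2.46% of all probe sets were. Those shares count every probe set tested, whereas the 84 are 1 probe set per gene, and no share per gene was computed. The 2 are thus not drawn alike. A value below 0 was found for 55 of the 84 (65.5%) and for 49.2% of all genes tested, with medians of −0.08 and 0.00265. Leaving out Oa1-/- replicate 1 gave a share of 57.1%, with a median of −0.03, and leaving out WT replicate 3 gave 69.0%. Oa1-/- replicate 1 had the lowest median signal over the whole array, 93.6 against 108 to 129 on the others. It was the lowest array for 27.7% of all probe sets tested and the highest for 17.6%. With quantile normalization the share was 61.9% beside 46.3% of all genes, and with median centring 61.9% beside 39.8%. Beside these, 13 of 15 periocular mesenchyme markers had a log2 change below 0, with a median of −0.22. The summed signal of these markers overlapped, at 81451 to 97846.5 on the WT arrays and 83788 to 88552.5 on the Oa1-/- arrays. The 3' 18S control was higher in Oa1-/- as given above. Retinal ganglion cell markers were mostly higher in Oa1-/-. Their summed signal over 10 genes was 50713 to 55436 on the WT arrays and 56848 to 63346 on the Oa1-/- arrays, with no overlap, lowest on WT replicate 1 and highest on Oa1-/- replicate 1, and 9 of the 10 had the higher mean in Oa1-/-. In every other marker list the summed signals of the genotypes overlapped. The mean was lower in Oa1-/- for 5 of 6 surface epithelium genes, 1 of 9 endothelium genes and 0 of 10 lens genes. The part of these in the pathway values was not tested.

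In the ligand list, all of the 12 tested genes, 10 Wnt genes with Porcn and Wls, which acylate and carry Wnts, had a log2 change below 0, with a median of −0.14. The count was 10 of 12 with quantile normalization or median centring and 8 of 12 without both WT replicate 3 and Oa1-/- replicate 1. Single values were mostly within their error, and 1 of the 12 had an unadjusted p below 0.05. This was Wnt4, a ligand that can signal with or without β-catenin. It read 566, 474 and 498 on the WT arrays and 380, 366 and 397 on the Oa1-/- arrays with 1450782_at, so that the groups did not overlap. The fitted log2 change was −0.41 (SE 0.12, unadjusted p = 0.00844, limma adjusted p = 0.985), and a second Wnt4 probe set read 458 and 425. Wls had a log2 change of −0.18, which became −0.03 when WT replicate 1 was left out and −0.29 when WT replicate 3 was.

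Secreted antagonists outside the members included the gene with the smallest unadjusted p of the pathway, Dkk2, a Dickkopf protein that binds Lrp co-receptors and is expressed in periocular mesenchyme. It read 2419, 2497 and 2373 on the WT arrays and 1426, 1451 and 2169 on the Oa1-/- arrays with 1420512_at. The groups did not overlap, but Oa1-/- replicate 3 lay close to WT. This was a log2 change of −0.55 (SE 0.15, unadjusted p = 0.00649, limma adjusted p = 0.985), which was −0.75 when Oa1-/- replicate 3 was left out and −0.45 when Oa1-/- replicate 1 was. Of the 8 antagonists tested 6 were below 0, and the Wnt-binding inhibitor Wif1 had a log2 change of −0.26.

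Of the 6 further frizzleds, 3 had a log2 change above 0 and 3 below. Fzd2 read 2083, 1914 and 1932 on the WT arrays and 1829, 1612 and 1589 on the Oa1-/- arrays, with no overlap, a log2 change of −0.24 and an unadjusted p of 0.0277. Fzd7 had a log2 change of −0.15, also with no overlap. The mean of Oa1-/- was the lower one on all 3 Fzd2 probe sets. Among co-receptors and planar polarity receptors, 9 of 12 were below 0, with Ror1, a Wnt5a receptor, at −0.19 and Vangl1 at −0.17. Ror1 was at −0.10 without WT replicate 1. Vangl1 was at −0.08 without Oa1-/- replicate 1 and at −0.26 without Oa1-/- replicate 3, and its second tested probe set had means of 94.5 and 94.6. Of 5 genes of the R-spondin and Lgr group, 4 were below 0, with the R-spondin receptor Lgr5 at −0.29 and Rspo1 at −0.11. Without WT replicate 1 the Lgr5 value was −0.06, and without WT replicate 3 it was −0.50. Rspo1 moved to −0.00667 when WT replicate 2 was left out and to −0.18 when Oa1-/- replicate 1 was.

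In the short list for norrin signalling through Fzd4, 3 of 4 genes had a log2 change above 0. Ndp, which encodes norrin, read 96.4, 117 and 103 on the WT arrays and 169, 139 and 158 on the Oa1-/- arrays with 1449251_at. Every Oa1-/- array was above every WT array, although the signal was dim. The log2 change here was 0.50 (SE 0.18, unadjusted p = 0.0232, limma adjusted p = 0.985), from 0.44 to 0.57 with 1 array left out. Tspan12, a tetraspanin that assists norrin at Fzd4, read 162 ± 3.50 and 194 ± 21.4 (SD, n = 3) with no overlap and a log2 change of 0.23 (unadjusted p = 0.185 in limma). The receptor Fzd4 itself did not share this direction, as given above, and the co-receptor Lrp5 had a log2 change of −0.26.

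**Figure D4:**
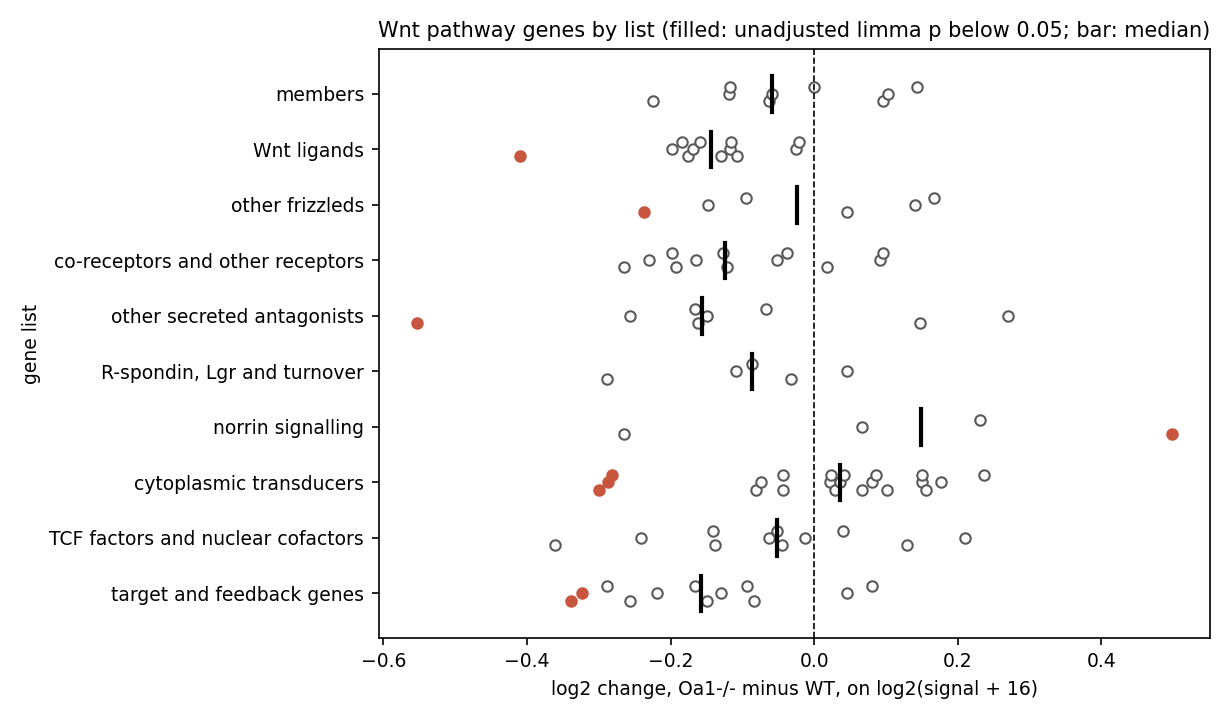
Log2 change between genotypes (horizontal axis, Oa1-/- minus WT, on log2(signal + 16)) of the members and of each of the 9 lists of other pathway genes (rows), with a point per gene, the list's median as a bar and genes with an unadjusted limma p below 0.05 filled. No member is filled, and the 12 points of the ligand list lie left of 0.

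Inside the cell, 14 of 21 cytoplasmic transducers were above 0, with a median of 0.04. The 3 with an unadjusted p below 0.05 were lower in Oa1-/-. They were Prickle1, a planar polarity protein (log2 change −0.29), Axin1, the constitutive counterpart of Axin2 (−0.28), and Dvl2 (−0.30), which relays the frizzled signal and was named after its value was seen. Prickle1 and Axin1 had groups that did not overlap, and a second, dimmer Axin1 probe set read 142 and 152. Among TCF factors and cofactors 8 of 11 were below 0, with a median of −0.05 and none at an unadjusted p below 0.05. That direction rested on 1 array, since without Oa1-/- replicate 1 the count was 4 of 11 and the median 0.03. Without both that array and WT replicate 3 it was also 4 of 11. Bcl9l, a β-catenin cofactor, had a log2 change of −0.24, which was −0.15 without Oa1-/- replicate 2. Ctnnbip1, an inhibitor of β-catenin, had one of 0.21, which was 0.11 without Oa1-/- replicate 1 and 0.13 without WT replicate 2. A second Ctnnbip1 probe set was at −0.02.

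Of 12 target and feedback genes outside the members, 10 were below 0, with a median of −0.16. The values for Axin2 and Lef1 were −0.12 and −0.22. Lgr5, Notum, Znrf3, Dkk1 and Wif1 among these genes are also in the antagonist or R-spondin lists above, so the counts of these lists are not separate. Nkd1, a feedback inhibitor that binds Dishevelled, read 579, 631 and 793 on the WT arrays and 522, 532 and 507 on the Oa1-/- arrays with 1429506_at. The groups did not overlap, and WT replicate 3 was the highest array, unlike for Axin2 and Lef1. The log2 change was −0.34 (unadjusted p = 0.0337 in limma), −0.21 without WT replicate 3. Dimmer Nkd1 probe sets that were tested had the same sign but smaller log2 changes, of −0.13 and −0.17. Their unadjusted p in limma was 0.404 and 0.564, so the size of the Nkd1 change rested on the brightest probe set. Cd44, a hyaluronan receptor that is also a mesenchymal gene, had a log2 change of −0.32 (unadjusted p = 0.0363 in limma) with overlapping groups. Without WT replicate 1 the median of this list was −0.07, with 9 of 12 below 0.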

How the data were processed

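The deposited values are intensity signals that the authors computed with MAS5 on a linear scale, per the submitters' processing notes. Its version is not given here. Per the labels' protocols, 12.5 micrograms of total RNA went into each cRNA. Every array had the same mean after trimming 2% at each end, so the values had been scaled to a common target, and no further normalization was applied. The 64 control probe sets were left out of tests. Detection calls were not used here. The number of arrays, 3 of each genotype, limits the precision.

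Genes were named through the platform annotation, which gave 1 symbol to 34945 probe sets and several to 932, with symbols checked through Entrez identifiers against RefSeq. The log2(signal + 16) values were fitted with limma 3.58.1 in R 4.3.3 (lmFit, eBayes with an intensity trend), Oa1-/- minus WT without covariates, over probe sets with a mean above the 40th percentile. Tests were two-sided, adjusted by Benjamini-Hochberg, with a threshold of 0.05, and fold changes understate those of dim probe sets. The code was tested on simulated data. The members and lists were chosen with earlier results of these data known. Named genes were the members, and of each pathway list the 2 genes with the smallest unadjusted p where none passed the threshold; for each member the 2 genes with the highest r were sought. Same-numbered WT and Oa1-/- arrays did not deviate together, with correlations of −0.29, 0.16 and −0.23, so the numbers were not taken as pairs.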

Additional observations from a re-analysis of the deposited data

How the results depend on the processing

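The count of member probe sets past the threshold was 0 under all 17 alternatives in which it was counted, and at most 1 member probe set had an unadjusted p below 0.05 in any of them. Over the whole array 2 probe sets passed with median centring and 2 with array weights, and 0 in the other alternatives, leave-one-out fits included. At an unadjusted p below 0.05 the whole array gave 444 higher and 666 lower, 579 and 628 with quantile normalization, 1391 and 1686 with array weights, 957 and 1011 with no filter, and 240 and 367 with a filter at the 70th percentile. Signs turned for members whose change was near 0. Fzd4 was at 0.023 with quantile normalization and 0.030 with median centring, Fzd8 at −0.00476 with array weights, −0.089 with the signal of Y-linked genes as a covariate and −0.092 without both WT replicate 3 and Oa1-/- replicate 1, Sfrp1 at 0.060 with that covariate and 0.022 without both arrays, and Fzd5 at −0.000107 with the mean of its probe sets. The mean over all probe sets of a gene, those near background included, also moved Axin2 from −0.12 to −0.34 (unadjusted p = 0.0478, limma adjusted p = 0.956), Lef1 from −0.22 to −0.46, Fzd4 to −0.13 and Fzd1 to −0.06. With 1 array left out, the log2 change ran from −0.14 to 0.074 for Fzd4, −0.074 to 0.28 for Fzd8, −0.22 to 0.040 for Sfrp1, −0.14 to 0.077 for Sfrp2, −0.21 to 0.018 for Axin2 and −0.35 to 0.010 for Lef1. It kept its sign for Fzd1 (−0.21 to −0.03), Fzd5 (0.06 to 0.15) and Dkk3 (0.06 to 0.22). The 18 other pathway genes named by the rule also kept theirs. They were picked by small unadjusted p on these same arrays, which favours a stable sign, so this gives no separate support. The causes were not tested. With the replicate number as a block, 0 members passed and 338 higher and 547 lower probe sets had an unadjusted p below 0.05, and no call changed. Depth has no equivalent on arrays, and 4 member probe sets with means under 39.3, the highest bacterial control, cannot show a difference near the background. Filtering at the 70th percentile removed Fzd8 and some of the other named genes, for which no value was computed there.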
